A study of Mus musculus with 20 samples.

Results

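The 10 mice behind these cortical libraries carry 2 forms of name in their titles. Those of 4 animals include the letters BT (wtBT13, wtBT14, hetBT13, hetBT14), and those of the other 6 are plain numbers (wt734, wt736, wt785, het729, het730, het786). The members described here are the 8 lysate libraries whose titles end in IN, out of 20 libraries in the series: 3 from BT-named animals and 5 from number-named animals. The labels do not state what the name form stands for (a colony, litter, date or batch), so the comparison measures a difference between 2 sets of animals whose origin is not stated. Any property that goes with the name form, such as breeding, dissection or library preparation, cannot be told apart in it.

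All animals were C57BL/6 mice aged 3 months, and each library came from the cortex of 1 animal. The BT-named group held 2 wild types and 1 animal with a heterozygous deletion of Foxp2. The number-named group held 3 wild types and 2 heterozygotes, and genotype was a covariate of the lysate and pull-down comparisons. In the 8 animals compared, a small volume of the cleared cortical lysate was set aside (Input) ahead of the anti-GFP pull-down of tagged ribosomes (IP). The labels name neither the promoter or cell type behind the tag nor the cells that carry the deletion. Animals het730 and hetBT14, both heterozygous, gave no IP; each has a pair of lysate libraries with titles ending in IX and IXX, which the comparison did not use.

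Lysate RNA is the total of all cells in the dissected cortex, whereas RNA pulled down on tagged ribosomes is the translated RNA of the tagged cells. Ribosomal proteins build the ribosome itself, and the nuclear subunits of oxidative phosphorylation build the respiratory chain and ATP synthase of mitochondria; both families consist largely of short, abundant mRNAs. Immediate early genes such as Fos and Arc are transcribed within minutes of neuronal firing or of other stimuli, and phosphatases such as Dusp1 and Dusp6 follow MAP kinase activity and dampen it.

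Lysate totals were 2782934 to 3791468 counts in BT-named and 3416949 to 4072270 in number-named animals, and the IP totals of the same animals were 4061562 to 5754169. Foxp2 matched the genotype labels in lysate, at 22.5 to 28.6 CPM (counts scaled to library size) in the 3 heterozygotes and 35.9 to 59.3 CPM in the 5 wild types. Ddx3y and Eif2s3y, which lie on the Y chromosome, were expressed in all 8 animals (64.9 to 81.9 CPM and 31.7 to 39.1 CPM), and Xist was at 0 to 0.371 CPM. Nnt, which differs between C57BL/6 substrains, was at 18.8 ± 1.92 CPM in BT-named (SD, n = 3) and 20.5 ± 2.55 CPM in number-named animals (n = 5; adjusted p = 0.774). The labels do not say whether animals of 1 name form shared a litter, so p-values measure the spread between these animals only.

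In lysate, 811 of 14203 genes tested (5.71%) differed by name form at an edgeR adjusted p below 0.05. Of these, 200 genes (1.41% of those tested) were higher in BT-named animals and 611 (4.3%) were lower. The lower group held 56 ribosomal protein genes, 47 oxidative phosphorylation genes, 60 other protein-coding genes under 1 kb and 202 pseudogenes, beside genes outside these classes. The higher group held 1 of 21 immediate early and 3 of 23 delayed early genes tested, where 1.41% of all genes were called higher. It held no gene under 1 kb. An unadjusted p below 0.05 was reached by 2827 genes (19.9%). In bulk tissue, fewer cells of a type cannot be told apart from less RNA per cell. In 1883 genes (13.3% of those tested) the 3 BT-named animals did not overlap the 5 number-named animals.

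Cytosolic ribosomal protein genes were lower in BT-named lysate as a family. Of 79 tested (81 in the table), 56 were called lower and 0 higher, where 4.3% of all genes were called lower. The median log2 difference of the 79 was -0.49, or 0.71 of the number-named level, and that of all genes tested was 0.01. Their summed level was 3604 to 4934 CPM in the BT-named animals and 5627 to 6373 CPM in the number-named animals, with no overlap.

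Rps21 (chromosome 2, 180257377 to 180258445, plus strand), a protein of the small ribosomal subunit, had the largest difference among them. It was at 18.9 CPM in wtBT13, 23.9 CPM in wtBT14 and 26.0 CPM in hetBT13, against 42.6 CPM in wt734, 45.6 CPM in wt736, 46.4 CPM in wt785, 50.4 CPM in het729 and 43.5 CPM in het786. Every BT-named animal was below every number-named animal, in both genotypes. The means were 22.9 ± 3.64 CPM (SD, n = 3) and 45.7 ± 3.04 CPM (n = 5), a log2 difference of -0.99 (SE 0.13, adjusted p = 0.000334).

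Rps29, also of the small subunit, was at 56.7 CPM in wtBT13, 80.5 CPM in wtBT14 and 75.7 CPM in hetBT13, and at 114 to 133 CPM in the number-named animals, with a median of 120 CPM (log2 difference -0.76, SE 0.10, adjusted p = 0.000341). Rpl41, which encodes a very small protein of the large subunit, was at 96.6 to 141 CPM in BT-named animals and 178 to 228 CPM in the others (-0.67, SE 0.09, adjusted p = 0.000341). Rpl32, another large-subunit gene, was at 50.5 to 79.4 CPM against 99.7 to 123 CPM (-0.71, SE 0.10, adjusted p = 0.000369). The groups did not overlap in any of these 4 genes, and wtBT13 was the lowest animal in each. Rps9, with more exon bases, differed less, at 121 ± 9.36 CPM (SD, n = 3) against 167 ± 13.1 CPM (n = 5; log2 difference -0.45, adjusted p = 0.00198). At the other end of the family, Rpl9 had a log2 difference of 0.0035, and Rpl4 (-0.16, adjusted p = 0.231) and Rps6 (-0.13, adjusted p = 0.453) were not called.

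Subunits of the oxidative phosphorylation chain encoded in the nucleus had the same direction with a smaller size. Of 77 tested, 47 were called lower and 0 higher, with a median of -0.35, where 4.3% of all genes were called lower. Their summed level was 19452 to 22652 CPM in BT-named and 23387 to 26442 CPM in number-named animals. Cox6c, a structural subunit of cytochrome c oxidase, was at 248 CPM in wtBT13, 316 CPM in wtBT14 and 322 CPM in hetBT13, and at 422 to 464 CPM in number-named animals, with a median of 442 CPM. The lowest number-named animal was above the highest BT-named one (log2 difference -0.57, SE 0.08, adjusted p = 0.000348). Ndufb3 of complex I (122 ± 13.2 CPM, n = 3, against 181 ± 10.6 CPM, n = 5, SD), Atp5k of ATP synthase (113 ± 10.4 against 170 ± 10.7 CPM) and Cox6b1 of cytochrome c oxidase (398 ± 54.6 against 575 ± 51.9 CPM) were also lower, each at an adjusted p of 0.000369. Some catalytic and core subunits with 4126 to 8086 exon bases did not pass the test: Sdha of complex II had a log2 difference of 0.19 (adjusted p = 0.108), Uqcrc1 of complex III 0.21 (adjusted p = 0.0846), Ndufs1 of complex I 0.20 (adjusted p = 0.148) and Atp5b of ATP synthase -0.08 (adjusted p = 0.572).

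Transcripts of the mitochondrial genome had a negative difference in all 15 genes tested, but 1 passed the test, where 4.3% of all genes tested were called lower. This was mt-Nd3 of complex I, at 27.3 ± 9.39 CPM (SD, n = 3) against 48.9 ± 6.87 CPM (n = 5; log2 difference -0.86, SE 0.19, adjusted p = 0.0179). The share of mitochondrially encoded counts was 1.25 ± 0.277% in BT-named (SD, n = 3) and 1.63 ± 0.159% in number-named lysate (n = 5). The two-sided exact permutation p was 0.0179, the smallest that 3 against 5 animals allow, and 0.143 after adjustment over the 8 library-level values compared. The gap between the groups was narrow, with 1.411% as the highest BT-named and 1.420% as the lowest number-named value, and wtBT13 was the lowest (0.928%).

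The difference was not limited to these families: it went with the length of the gene. Of 703 other protein-coding genes with less than 1 kb of exon, 192 passed the filter on low counts, and of these 60 were called lower and 0 higher, with a median of -0.35. Across all genes tested, 4.3% were called lower and 1.41% higher. Among 1529 pseudogenes, with processed and unprocessed ones not separated, 202 were called lower and 5 higher, with a median of -0.18. Many are copies of ribosomal protein genes, so reads of a parent gene and its copies may have been split between them. The counts of single copies are therefore uncertain. Rpl39-ps was at 4.4 to 11.1 CPM against 13.8 to 17.8 CPM, and Rpl30-ps1 at 1.81 to 4.08 CPM against 5.35 to 7.85 CPM. The 611 genes called lower had a median of 1032 exon bases, against 4132.5 bases for all genes tested and 5432.5 bases for the 200 called higher, and 292 of the 611 and 0 of the 200 were under 1 kb. By length, the median log2 difference was -0.42 in genes of up to 500 bases (25% called lower), -0.23 at 500 to 1000 bases, -0.10 at 1000 to 2000 bases and 0.02 to 0.06 in the 3 longer classes.

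**Figure D1:**
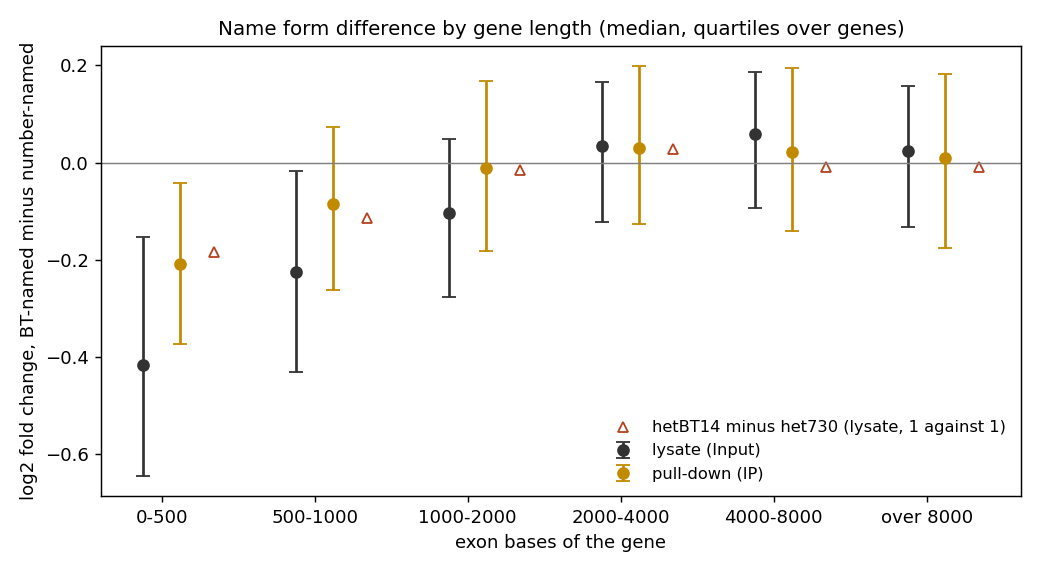
Log2 difference between BT-named and number-named animals by exon bases of the gene, in lysate (black) and pull-down (gold); points are medians over genes, bars span the quartiles over genes, and open triangles are hetBT14 minus het730. In lysate the median runs from -0.42 in the shortest class to 0.06 in genes of 4000 to 8000 bases, and the pull-down runs the same way from -0.21.

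Each lysate library showed this as a share of its counts. Genes under 1 kb took 4.25% of counts in wtBT13, 4.72% in wtBT14 and 4.93% in hetBT13, and 5.66 to 6.23% in the 5 number-named animals, which did not overlap. In the fit that removed a smooth trend with length from each library, 38 of the 79 ribosomal protein genes were still called lower (median -0.44), as were 24 of the 77 oxidative phosphorylation genes (median -0.19). Of the other short protein-coding genes, 3 were then called lower and 1 higher. Length here was the union of all annotated exons of a gene, which can exceed the length of its mRNA. By this measure, 192 of the 220 protein-coding genes under 1 kb tested lay outside the 2 families. The fit therefore did not remove a trend with the length of the mRNA itself, which was not tested. The part of gene length in the lower calls was not tested beyond this fit.

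**Figure D2:**
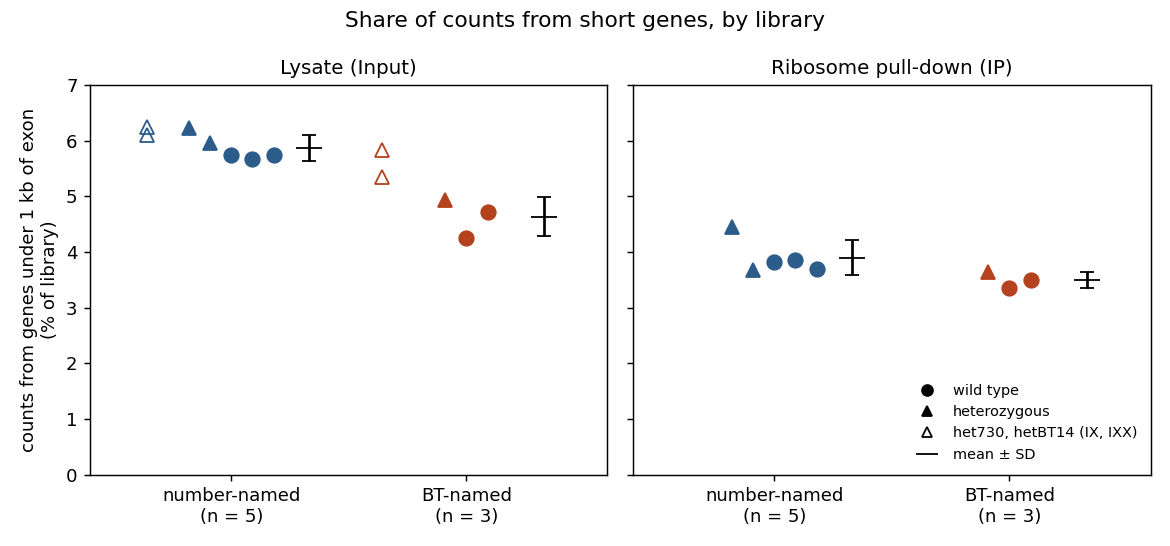
Percentage of each library's counts that came from genes with less than 1 kb of exon, in lysate (left) and pull-down (right), for 5 number-named (blue) and 3 BT-named animals (red); circles are wild types, triangles heterozygotes, bars mean ± SD. In lysate the BT-named animals lie at 4.25 to 4.93% and the number-named at 5.66 to 6.23%; open triangles are the IX and IXX libraries of het730 (6.25 and 6.09%) and hetBT14 (5.35 and 5.84%).

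Among the genes higher in BT-named lysate, several belong to the response to MAP kinase signalling and neuronal activity. Dusp1 (chromosome 17, annotated span in GENCODE 26505590 to 26562128, minus strand), a phosphatase that inactivates MAP kinases, had the largest difference. The RefSeq start used for its promoter below lies inside this span. Its level was 216 CPM in wtBT13, 131 CPM in wtBT14 and 116 CPM in hetBT13, against 76.5 CPM in wt734, 76.9 CPM in wt736, 76.3 CPM in wt785, 73.3 CPM in het729 and 43.5 CPM in het786. All BT-named animals were above all number-named animals, with wtBT13 the highest and het786 the lowest (log2 difference 1.12, SE 0.20, adjusted p = 0.02). Leaving out wt734, wt736, wt785 or hetBT13 ended this call (adjusted p = 0.0623 to 0.0685), as did dropping the genotype covariate (0.0533) or including the IX and IXX libraries (0.133).

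Dusp6 (chromosome 10, 99263231 to 99267489, plus strand), the cytoplasmic phosphatase of ERK, was at 229 CPM in wtBT13, 199 CPM in wtBT14 and 150 CPM in hetBT13, and at 111 to 141 CPM in number-named animals, with a median of 114 CPM. The groups did not overlap (log2 difference 0.67, SE 0.09, adjusted p = 0.000341), and the call held in each of 18 alternative analyses. Klf10, a zinc finger factor induced by growth factors, was at 138, 123 and 79.4 CPM in wtBT13, wtBT14 and hetBT13, and at 56.5 to 72.9 CPM in the others (0.80, SE 0.10, adjusted p = 0.000334). The Klf10 call was lost once IX and IXX entered the fit (adjusted p = 0.185). In both genes hetBT13 was the lowest of the 3 BT-named animals. Trib1, a pseudokinase (25.4 ± 4.93 CPM, n = 3, against 15.1 ± 4.52 CPM, n = 5, SD; adjusted p = 0.019), Csrnp1, an early response nuclear protein (20.3 ± 3.6 against 12.4 ± 2.35 CPM; adjusted p = 0.0121), and Plk3, a stress kinase (24.0 ± 3.08 against 15.6 ± 2.07 CPM; adjusted p = 0.0144), were also higher. Rgs4, which limits signalling by G proteins, was higher by 0.28 on the log2 scale (adjusted p = 0.0195).

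As lists, however, activity genes mostly did not pass the test. Of 21 immediate early genes tested, 1 was called higher (Dusp1) and 0 lower, with a median of 0.40, and of 23 delayed early genes, 3 were called higher (Dusp6, Trib1 and Rgs4) and 0 lower, with a median of 0.13; 1.41% of all genes were called higher. Arc, a neuronal protein that binds its own mRNA at synapses, was at 445 CPM in wtBT13, 298 CPM in wtBT14 and 191 CPM in hetBT13, against 128, 115, 144, 113 and 42.6 CPM in wt734, wt736, wt785, het729 and het786. The groups did not overlap, and the log2 difference of 1.46 (SE 0.32) missed the threshold (adjusted p = 0.0699). Fos, the classical activity marker, was at 133 CPM in wtBT13 but 59.8 CPM in wtBT14 and 47.1 CPM in hetBT13, which overlapped the number-named range of 19.3 to 48.2 CPM (adjusted p = 0.222). Nr4a1 (1.07, adjusted p = 0.0846), Egr2 (1.52, adjusted p = 0.31) and Egr1 (0.40, adjusted p = 0.448) were not called, and Nr4a3 (-0.27) and Jund (-0.49) had negative differences. Without wtBT13 the median of the 21 immediate early genes was 0.12 in place of 0.40.

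The promoters of 3 of these genes, all higher in BT-named lysate, are shown because the motif bound by CREB, the factor that responds to cAMP and calcium, is a common element of activity genes. The sequences are the 250 bases before the RefSeq start (GRCm38.p6), 5′ to 3′ on the gene's strand, and capitals mark TGACG or its reverse complement CGTCA on either strand, which includes the full palindrome TGACGTCA.
Dusp1, chr17:26508473-26508722, minus strand: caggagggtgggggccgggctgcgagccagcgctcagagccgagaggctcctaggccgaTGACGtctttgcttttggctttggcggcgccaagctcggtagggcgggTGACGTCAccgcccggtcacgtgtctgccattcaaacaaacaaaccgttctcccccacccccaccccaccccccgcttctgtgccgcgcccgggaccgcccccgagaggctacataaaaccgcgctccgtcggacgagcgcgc
Plk3, chr4:117133964-117134213, minus strand: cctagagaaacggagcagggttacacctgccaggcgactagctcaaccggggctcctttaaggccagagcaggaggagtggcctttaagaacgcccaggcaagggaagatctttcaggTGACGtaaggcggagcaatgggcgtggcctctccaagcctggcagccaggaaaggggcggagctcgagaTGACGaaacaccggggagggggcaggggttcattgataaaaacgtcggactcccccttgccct
Dusp6, chr10:99262981-99263230, plus strand: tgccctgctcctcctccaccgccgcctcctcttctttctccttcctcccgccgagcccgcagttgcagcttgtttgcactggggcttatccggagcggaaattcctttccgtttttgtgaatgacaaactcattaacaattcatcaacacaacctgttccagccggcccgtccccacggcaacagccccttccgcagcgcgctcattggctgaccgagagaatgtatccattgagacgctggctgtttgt
Dusp1 holds the full palindrome, with a separate TGACG upstream of it, Plk3 holds 2 copies of TGACG, and these letters are not in the Dusp6 window. Of the 44 immediate and delayed early genes tested, 32 matched this table by symbol, and 20 of the 32 hold TGACG before at least 1 listed start and 4 hold TGACGTCA. Over all 32851 promoters in the table, each counted once, the shares were 17.8% and 1.55%. The units differ, since a gene with several listed starts had more than 1 window in which to hold the motif. A match is a description of the sequence, and no binding was measured.

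**Figure D3:**
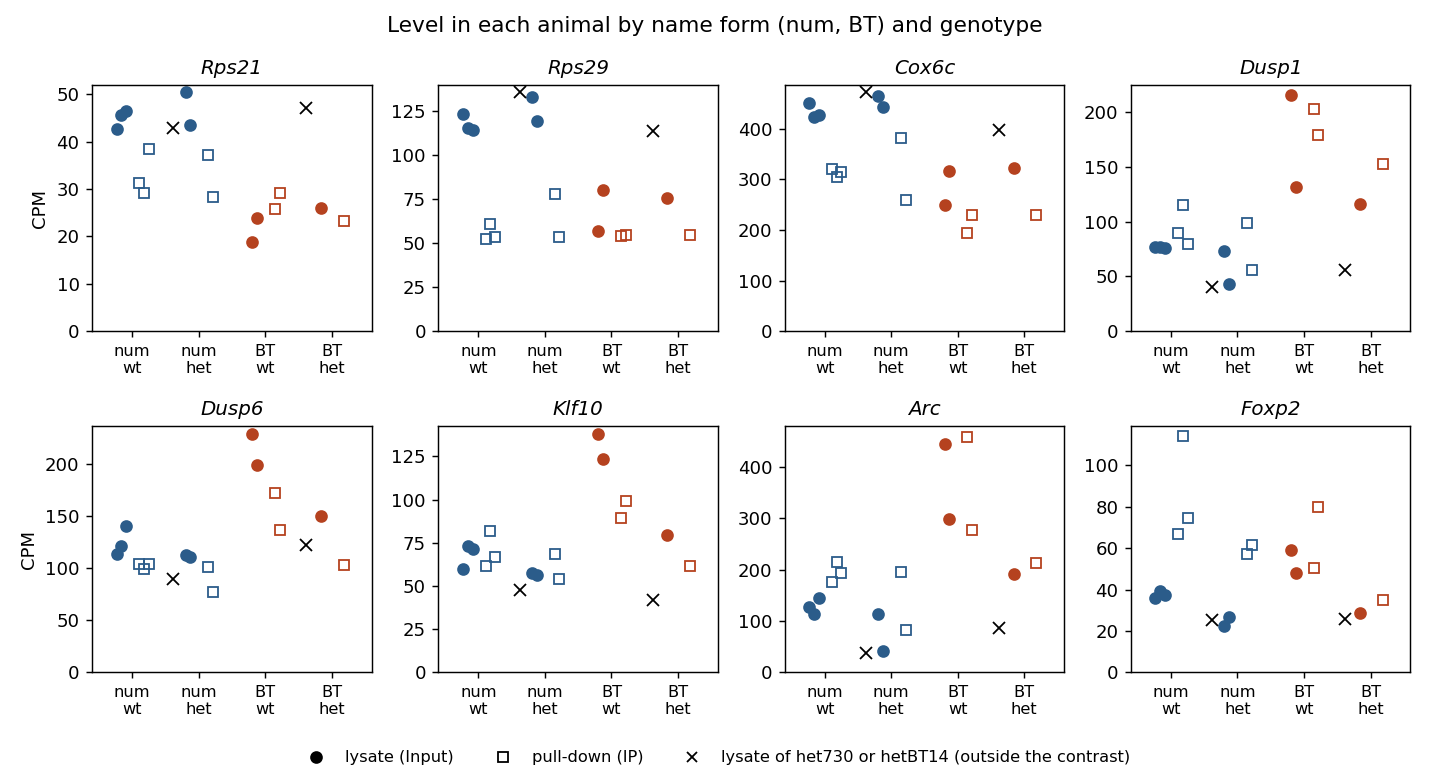
CPM of 8 genes in each animal, grouped by name form (num, number-named; BT) and genotype; filled circles are lysate, open squares pull-down, and crosses the lysate of het730 or hetBT14, which the comparison did not use. Rps21, Rps29 and Cox6c are lower, and Dusp1, Dusp6, Klf10 and Arc higher, in all 3 BT-named lysates than in all 5 number-named ones, while the cross of hetBT14 lies inside the number-named range for Rps21 (47.0 CPM) and below it for Klf10 (42.1 CPM).

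The other large increases were of unrelated function. Tmem241, a predicted membrane protein, was at 17.6, 12 and 11.5 CPM in wtBT13, wtBT14 and hetBT13 and at 6.60 to 8.62 CPM in number-named animals (log2 difference 0.89, SE 0.20, adjusted p = 0.00791). Cog3, a subunit of the Golgi tethering complex COG, was at 33.7 to 37.3 CPM against 19.9 to 26.0 CPM (0.64, SE 0.13, adjusted p = 0.00512) and was called in all 18 alternatives. Cmtm3, Rnpc3 (a protein of the minor spliceosome), Car12 (carbonic anhydrase 12), Xrcc3 (homologous recombination), Aldh4a1 (proline breakdown), Ifit2 (interferon response), Bbs9 (a subunit of the ciliary BBSome) and the pseudogene Gm12263 had log2 differences of 0.57 to 0.80, with adjusted p from 0.0242 to 0.0428. Groups without overlap were a condition for naming these genes, and the highest number-named animal came close in Car12 (12.5 CPM, with hetBT13 at 12.6 CPM).

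Large decreases outside the 2 families included genes with more than 1 kb of exon. Prr7, a postsynaptic membrane protein, was at 10.4 CPM in wtBT13, 10.5 CPM in wtBT14 and 9.28 CPM in hetBT13, and at 16.2 to 33.6 CPM in number-named animals (log2 difference -1.11, SE 0.25, adjusted p = 0.0168). The 3 BT-named animals lay close together, and the number-named ones were spread widely, with wt734 the highest. Setd1a, a histone H3 lysine 4 methyltransferase (2.33 to 4.08 CPM against 4.16 to 9.77 CPM; -1.13, adjusted p = 0.025), Cdk13, a kinase of RNA polymerase II (-1.05, adjusted p = 0.0303), and Rfxap, a factor of MHC class II transcription (-1.13, adjusted p = 0.0104), were also lower. Camk2n2, an inhibitor of CaM kinase II, was at 3.88 to 4.45 CPM against 6.04 to 11.5 CPM (-1.03, adjusted p = 0.0188). Zfas1, a host of small nucleolar RNAs, was at 5.18 to 6.12 CPM against 9.96 to 12.2 CPM (-1.02, adjusted p = 0.00512), and the small RNA gene Gm24105 had the largest decrease (-1.26, adjusted p = 0.0182). The remaining ones of this size, Gm13215, Gm12643, Gm10443 and Gm10263, are processed pseudogenes of 210 to 472 bases, at -1.20 to -0.98.

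Markers of cell types had few called members in lysate, where 4.3% of all genes were called lower and 1.41% higher, and their part in the results above was not tested. Of 10 glutamatergic neuron markers, 2 were lower: Slc17a7, the main cortical glutamate vesicle transporter, at 78.6 ± 7.43 CPM (SD, n = 3) against 110 ± 12.7 CPM (n = 5; log2 difference -0.49, adjusted p = 0.00385), and Nrgn, a calmodulin-binding protein, at 346 ± 44.3 against 477 ± 57.9 CPM (-0.46, adjusted p = 0.0104); the list summed to 1853 to 2558 CPM against 2402 to 2679 CPM. Of 21 interneuron markers, 4 were lower and 0 higher: Pvalb (95.5 ± 4.85 against 138 ± 16 CPM, adjusted p = 0.00179), Sst (218 ± 5.35 against 279 ± 17.9 CPM, adjusted p = 0.00671), Cck and Erbb4. Gad1 (0.23, adjusted p = 0.082), Gad2 (0.03) and Slc32a1 (-0.09) were not called. In the fit with the length trend removed, Nrgn (adjusted p = 0.104), Pvalb (0.0621), Sst (0.561) and Cck (0.282) missed the threshold, and Slc17a7 (0.00572) and Erbb4 (0.0457) passed it.

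Of 20 astrocyte markers, 2 were higher, where 1.41% of all genes tested were called higher and 4.3% lower. These were Aldh1l1, a folate enzyme (66.0 ± 7.62 against 46.5 ± 4 CPM, adjusted p = 0.00512), and Acsbg1 (adjusted p = 0.0377). The summed level of the astrocyte list overlapped (3957 to 5205 against 3505 to 4917 CPM). Tspan2 was called higher of 19 oligodendrocyte markers. Tyrobp, an adaptor of microglial receptors, was lower (-1.01, adjusted p = 0.0275) and was the 1 call among 17 microglial genes tested. Of the 17, 10 had a negative and 7 a positive difference (median -0.10), with Cx3cr1 (0.13) and P2ry12 (0.16) among the positive. The microglial sum overlapped (195 to 256 against 199 to 300 CPM). None of the 21 striatal or 8 endothelial genes tested was called by edgeR. Metallothioneins, which bind zinc and copper, were lower together: Mt1 at 214 ± 23.4 against 285 ± 10.9 CPM (adjusted p = 0.00273), Mt2 at 35.7 ± 5.92 against 51.4 ± 5.85 CPM (adjusted p = 0.0101) and Mt3 at 242 ± 27.9 against 320 ± 17.7 CPM (adjusted p = 0.00346). None of the 3 passed with the length trend removed (adjusted p = 0.0928, 0.259 and 0.148). The red cell sum was 1287 to 1623 CPM in BT-named and 1196 to 3660 CPM in number-named lysate, with 1 of 8 genes called, Fech, the enzyme that puts iron into heme, which was higher (0.35, adjusted p = 0.0137).

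Foxp2, the targeted gene, also differed by name form within genotype in the 8 animals compared. In lysate it was at 59.3 CPM in wtBT13 and 47.8 CPM in wtBT14, against 35.9, 39.4 and 37.2 CPM in wt734, wt736 and wt785. Among heterozygotes, hetBT13 had 28.6 CPM and het729 and het786 had 22.5 and 26.6 CPM. Within each genotype every BT-named animal compared was higher (log2 difference 0.45, SE 0.12, adjusted p = 0.0312). The heterozygotes outside the comparison did not repeat this, with 27.0 (IX) and 24.6 CPM (IXX) in hetBT14 and 25.7 and 24.7 CPM in het730. Leaving out wt734, wt736, wt785 or wtBT13 ended the call (adjusted p = 0.0617 to 0.233), as did DESeq2 (0.057), dropping the genotype covariate (0.258), including the IX and IXX libraries (0.0972), removing the length trend (0.0525) and testing protein-coding genes only (0.0509), 9 of 18 alternatives in all. In IP it was not called, and the wild types overlapped, with 50.5 CPM in wtBT13 and 79.7 CPM in wtBT14 against 66.6, 114 and 74.6 CPM in the number-named wild types, and 35.1 CPM in hetBT13 against 57.4 and 61.3 CPM (-0.51, SE 0.19, adjusted p = 0.211). The difference between the fractions was tested directly, with animal as a block, and passed (-0.96, SE 0.20, adjusted p = 0.0205).

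The pull-downs of the same 8 animals were read for the direction of the lysate calls; they are not independent of the lysates. There, 86 of 15176 genes tested (0.567%) were called, 45 higher (0.297%) and 41 lower (0.27%), and in 1666 genes (11%) the groups did not overlap. Of the 611 genes lower in lysate, 604 were tested in IP and 514 of them (85.1%) had a negative difference there, with a median of -0.19 against -0.52 in lysate, but 4 were called lower. Of the 200 genes higher in lysate, 126 (63.0%) had a positive difference in IP, with a median of 0.06 against 0.34, and 1 was called higher and 1 lower. Across all genes in IP, 50.2% had a positive difference.

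Ribosomal protein genes had a negative difference in 73 of 79 in IP (median -0.20), and 0 were called by edgeR at an adjusted p below 0.05, in a fraction where 2366 of all genes (15.6%) had an unadjusted p below 0.05. Rps21 was at 25.9, 29.1 and 23.2 CPM in the IP of wtBT13, wtBT14 and hetBT13 and at 28.3 to 38.5 CPM in number-named IP, where the groups overlapped (-0.34, adjusted p = 0.304). Rps29, at 53.9 to 54.9 CPM, lay within the number-named range of 52.2 to 77.7 CPM, and its difference was smaller in IP than in lysate by a direct test (0.63, SE 0.15, adjusted p = 0.0358). Oxidative phosphorylation genes were negative in 66 of 77 (median -0.16, 1 called lower), where 0.27% of all genes were called lower. Cox6c did not overlap in IP either, at 194 to 230 CPM against 260 to 382 CPM, although it missed the threshold (-0.54, SE 0.11, adjusted p = 0.0537). Short genes took 3.36 to 3.65% of IP counts in BT-named and 3.67 to 4.45% in number-named animals. Mitochondrially encoded genes were negative in all 15 in IP, with a median of -0.96 against -0.26 in lysate, and 0 were called by edgeR. Their IP sums were 683 to 703 CPM in BT-named animals, inside the number-named range of 608 to 4085 CPM. The number-named het729 had the highest share of such counts in IP (0.398%).

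Without wtBT14, edgeR called 0 genes in IP. With all 8 animals, Dusp1 was the 1 gene called higher in both fractions. Its IP level was 203 CPM in wtBT13, 179 CPM in wtBT14 and 152 CPM in hetBT13, and 56.3 to 115 CPM in number-named animals, with no overlap (log2 difference 0.99, SE 0.15, adjusted p = 0.0191). Immediate early genes had 2 called higher of 21 in IP (median 0.32), where 0.297% of all genes were called higher. Beside Dusp1 this was Egr2 (1.51, adjusted p = 0.0462), which was named after its value was seen. Delayed early genes had 2 called higher of 23, among them Sik1, a kinase induced by cAMP, at 12.1 to 12.4 CPM in all 3 BT-named animals against 2.51 to 6.23 CPM (1.34, SE 0.25, adjusted p = 0.037). Dusp6 was at 172, 137 and 103 CPM in the IP of wtBT13, wtBT14 and hetBT13 and at 76.9 to 104 CPM in the others (0.46, adjusted p = 0.0884). Klf10 overlapped in IP (61.4 to 99.0 CPM against 53.8 to 81.7 CPM; 0.28, adjusted p = 0.323). Arc was at 458, 277 and 212 CPM against 83.4 to 214 CPM, and its difference was smaller in IP than in lysate (-0.69, SE 0.12, adjusted p = 0.00533).

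**Figure D4:**
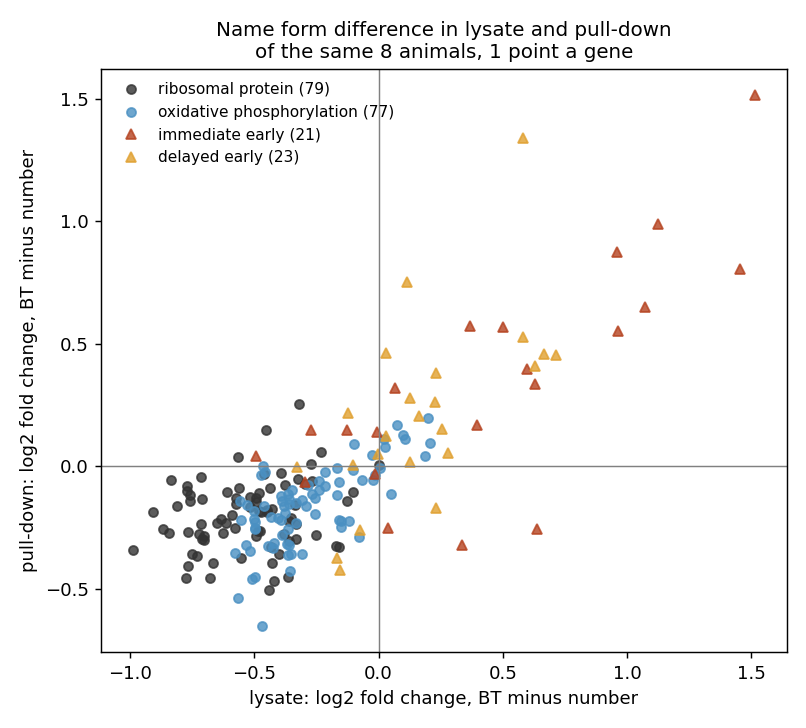
Log2 difference between BT-named and number-named animals in lysate (x axis) and in pull-down (y axis) of the same 8 animals, 1 point a gene, for 4 lists. Ribosomal protein (black) and oxidative phosphorylation genes (blue) lie mostly at negative values on both axes, with medians of -0.49 and -0.35 in lysate and -0.20 and -0.16 in pull-down; immediate early genes (red) have medians of 0.40 and 0.32.

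Other genes were called in the pull-down and not in lysate, although edgeR called 0 genes in IP without wtBT14. Padi2, an enzyme that converts arginine to citrulline, was at 28.1, 44.0 and 26.7 CPM in the IP of wtBT13, wtBT14 and hetBT13 and at 8.5 to 13.6 CPM in number-named IP (log2 difference 1.52, SE 0.20, adjusted p = 0.0115); in lysate its difference was 0.53 (adjusted p = 0.0691), and the fractions did not differ beyond the threshold (0.95, adjusted p = 0.0771). Rictor, the defining subunit of mTOR complex 2, was at 93.3, 141 and 72.7 CPM against 32.7 to 45.6 CPM (1.32, SE 0.17, adjusted p = 0.0115), while its lysate levels overlapped (24.3 to 30.1 CPM against 20.0 to 28.8 CPM); the fractions differed by a direct test (1.25, adjusted p = 0.00278). Notch2 and Zfp948 were also higher, by 1.43 and 1.27. Stk32c (-1.08), Tmf1 (-1.26), the inositol transporter gene Slc5a3 (-1.02) and 5330417C22Rik (-0.96) were lower. Of these, 5330417C22Rik also differed between fractions (adjusted p = 0.00625), while Notch2, Zfp948, Stk32c, Tmf1 and Slc5a3 did not pass that test (adjusted p = 0.123 to 0.708).

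Layer 6 corticothalamic neurons are cortical cells that express Foxp2. Of 14 of their markers tested, 3 were called lower and 0 higher in IP, where 0.27% of all genes were called lower, and no gene was called by edgeR without wtBT14. The difference was negative in 13 of the 14 (median -0.41), and their summed level was 1437 to 1725 CPM against 2140 to 2546 CPM, with no overlap. Pcp4, a calmodulin regulator, was at 386, 359 and 526 CPM in the IP of wtBT13, wtBT14 and hetBT13 and at 695 to 994 CPM in number-named IP (-0.95, SE 0.13, adjusted p = 0.0115). The other two were Rprm (-0.63, adjusted p = 0.0191) and Nfib (-0.50, adjusted p = 0.0322), named after their values were seen. In lysate the same list had 2 members higher (Foxp2 and Syt6), 1 lower (Pcp4, at 648 to 790 CPM against 883 to 1022 CPM) and a median of 0.11, with 10 of 14 positive. Its summed level went the other way (1563 to 1618 CPM against 1659 to 1826 CPM). Pcp4 alone was a large part of the sum in both fractions. In lysate the sum went with Pcp4 and against the list median, while in IP the sum, Pcp4 and the list median were all lower. Syt6, a synaptotagmin, was at 58.3 to 66.0 CPM against 33.7 to 55.7 CPM in lysate (0.52, adjusted p = 0.0141) and at 69.1 to 75.8 CPM against 60.9 to 104 CPM in IP, and the fractions differed (-0.84, adjusted p = 0.013).

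A direct test of the difference between fractions, with each animal as its own block, called 140 of 15145 genes (0.924%), of which 36 (0.238%) were more positive in IP and 104 (0.687%) more negative. Among the lysate calls, 25 of the 200 higher and 14 of the 611 lower genes differed between fractions. The 5 of smallest p all had a positive difference in lysate and a negative one in IP: Zhx3, a zinc finger homeobox repressor (0.43 and -0.59), the noncoding Dbpht2 (0.36 and -0.67), Fgf14, a regulator of sodium channels (0.38 and -0.49), Thrb, a thyroid hormone receptor (0.47 and -0.49), and Cbfa2t2, a transcriptional corepressor (0.43 and -0.50). Zhx3 was at 209, 170 and 142 CPM in the lysates of wtBT13, wtBT14 and hetBT13 against 119 to 153 CPM, and at 87.2, 82.9 and 69.3 CPM in their pull-downs against 91.7 to 143 CPM. Its number-named and BT-named animals overlapped in lysate and not in IP.

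The lysates of hetBT14 and het730 give the same measure in animals outside the comparison, with 1 animal on each side and no test. Of the 611 lower genes, 524 (85.8%) were lower in hetBT14 than in het730, where 52.2% of all genes were, and the median was -0.18 in place of -0.52. Of the 200 higher genes, 119 (59.5%) were higher in hetBT14, where 47.8% of all genes were, with a median of 0.05 in place of 0.34. Ribosomal protein genes were lower in 69 of 79 (median -0.19), with a sum of 5639 CPM in hetBT14, inside the number-named range of the comparison, and 6535 CPM in het730, above it. For single genes the direction varied. Against the comparison, Rps21 was at 47.0 CPM in hetBT14 and 42.8 CPM in het730, Klf10 at 42.1 and 47.9 CPM, and Tyrobp at 8.29 and 3.94 CPM. Dusp1 (55.8 and 40.2 CPM), Dusp6 (122 and 89.7 CPM), Arc (87.1 and 36.9 CPM) and Prr7 (16.3 and 33.1 CPM) differed in the direction of the comparison, with hetBT14 inside the number-named range of the comparison in each. With these libraries included, 65 genes were called higher and 388 lower.

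The size of the lysate result depended on single animals. Leaving out wtBT13, the animal with the lowest short gene share and the highest activity genes, left 49 genes higher and 319 lower, and leaving out the number-named wild type wt734 left 40 and 388. The higher count was also below 200 by more than 1.5 times without wt736 (101), het786 (106), hetBT13 (117) or wt785 (125). The ribosomal protein genes called lower were 36 to 57 of 79 over the 8 animals left out, with 36 without wtBT13, and their median stayed between -0.58 and -0.42. Of the pull-down calls, 0 were left by edgeR without wtBT14, where 1749 of 15095 genes had an unadjusted p below 0.05, limma-voom called 0 and DESeq2 called 42 higher and 67 lower.

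**Figure D5:**
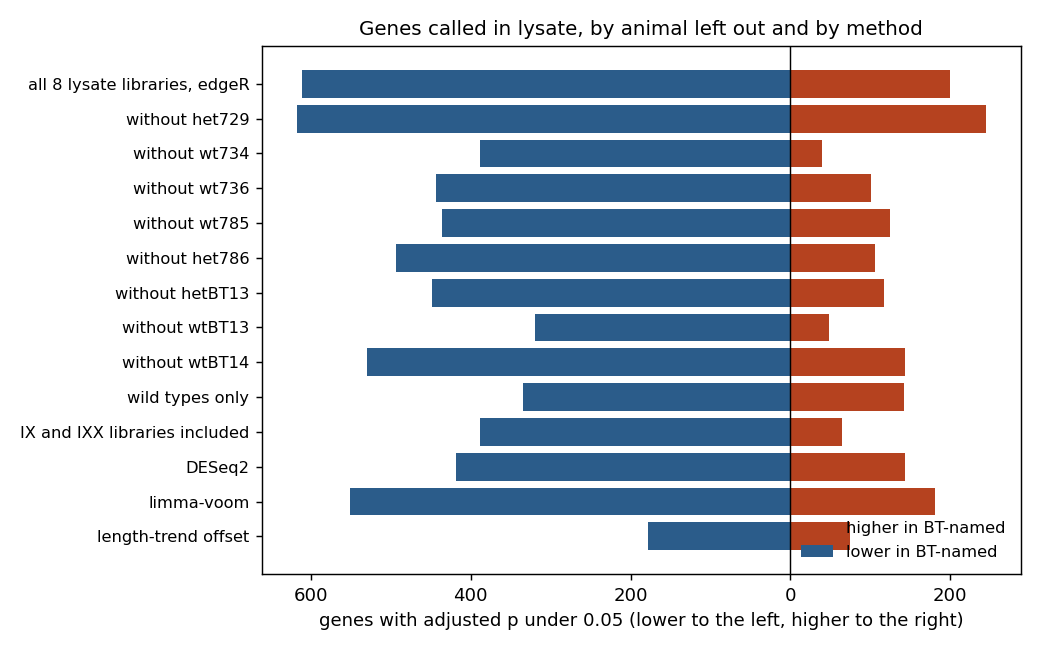
Genes called in lysate at an adjusted p below 0.05, lower in BT-named animals to the left (blue) and higher to the right (red), with all 8 libraries, with each animal left out, and with other methods. Among the bars drawn, the lower count lies between 178 (length trend removed) and 618 (without het729), and the higher count between 40 (without wt734) and 245 (without het729).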

How the data were processed

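Smart-seq2 libraries of lysate and pull-down were sequenced. The 20 libraries were deposited as unnormalised counts of reads for each Ensembl identifier. The submitters' processing notes name HTSeq and the build mm10. Aligner, annotation release, versions and strand setting: not given in the sources used here. Smart-seq2 marks neither strand nor molecules, so overlapping and antisense genes cannot be told apart. Of 25317 identifiers, 24873 were named and given coordinates and exon lengths from GENCODE M21 (GRCm38, the same build); 444 had none.

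Counts were tested in R 4.3.3 with edgeR 4.0.16 (filterByExpr with a minimum count of 10, TMM, robust quasi-likelihood F test, Benjamini-Hochberg adjustment over all genes tested, threshold 0.05) for name form with genotype as covariate, 3 against 5 animals, in lysate and in IP. The difference between fractions used 16 libraries with the animal as a block, because the protocol takes both from 1 lysate. CPM are TMM-scaled; errors are SD over animals, and SE that of the log2 difference. Library-level values were compared by two-sided exact permutation tests. Levels of het730 and hetBT14 are sums of their IX and IXX libraries, and their log2 ratios use a pseudocount of 1 CPM. Alternatives were DESeq2 1.42.0, limma 3.58.1 (voom), other scaling and filters, no genotype covariate, wild types only, each animal left out, and IX and IXX included; 2 were chosen after seeing the data, a loess length trend (span 0.3) entered as an offset and protein-coding genes only.

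Named genes were, by rule, the 15 largest called differences per direction in lysate (5 in IP) with a mean of at least 5 CPM and no overlap, the 5 of smallest p between fractions, up to 4 called members of each of 51 lists, and Foxp2, Xist, Ddx3y, Eif2s3y, Kdm5d, Nnt, Fos and Arc. List members named without a call were picked after their values were seen. The members and lists were chosen with earlier results of these data known, so lists carry no test. The fits were checked on simulated data.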

Additional observations from a re-analysis of the deposited data

Results flagged for a closer look

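Of 97 groups of 5 number-named values examined for an animal far from the other four, 8 held one, where chance gives about 1 in 20. The groups are values of the same 5 animals and are not independent. In het729 the IP held 0.398% mitochondrially encoded counts (group median 0.114%) and 4.45% of counts from short genes (median 3.82%). In lysate, het786 was low in Dusp1 (43.5 CPM) and Fos (19.3 CPM) (medians 76.3 and 42.6 CPM). In wt734, Rfxap was high at 12.2 CPM, Fech was low at 159.8 CPM and Xist stood at 0.255 CPM, where the other four had 0. The Xist value is near the floor, and any value above 0 would have been flagged there. In het729, Erbb4 was low at 9.53 CPM, close to the BT-named animals.

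The name form difference itself differed between pull-down and lysate, by the direct test with the animal as a block, in 16 of the genes named. The difference was more negative in IP for Car12 (-1.13), Plk3 (-0.99), 5330417C22Rik (-0.96), Pcp4 (-0.64), Zhx3 (-1.03), Dbpht2 (-1.05), Fgf14 (-0.88), Thrb (-0.97), Cbfa2t2 (-0.94), Syt6 (-0.84), Foxp2 (-0.96) and Arc (-0.69), all on the log2 scale. It was more positive in IP for Setd1a (1.82), Rictor (1.25), Rps29 (0.63) and Mt1 (0.54).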

How the results depend on the processing

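Counts in lysate (200 higher, 611 lower) moved by over 1.5 times as follows: 129 higher without the genotype covariate, 335 lower in wild types only, 65 higher and 388 lower with IX and IXX included, 75 higher and 178 lower with the length trend removed, and 102 higher in protein-coding genes only. With the length trend removed, 47 and 177 of the calls were shared. Counts in IP (45 higher, 41 lower) were 177 and 230 with DESeq2, 333 and 459 without a filter on low counts, 72 and 116 in wild types only, 62 lower with the stricter filter and 67 lower without the covariate. Between fractions (36 higher, 104 lower), they were 12 and 47 with no replicate block and 112 and 246 without a filter. Name forms share no replicate numbers that would pair the animals across them, so the block applies to the fractions only.

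With each animal left out, lysate calls were 40 to 245 higher and 319 to 618 lower, IP calls 0 to 97 and 0 to 119, and calls between fractions 8 to 55 and 45 to 120. The lysate differences in library values were -712946 to -208679 total counts, -0.465 to -0.224 percentage points of mitochondrially encoded counts (exact permutation p = 0.0286 without het729, 0.0476 without hetBT13 or wtBT14, 0.0571 without wt734, wt736, wt785 or het786, and 0.143 without wtBT13, where 7 animals allow no p below 0.0286, or 0.0476 with 2 BT-named) and 5.88 to 21.2 CPM of Foxp2. Kdm5d, at a log2 difference of 0.03 in lysate, was at -0.0187 without the covariate, -0.00667 with IX and IXX, and -0.13 to 0.35 with each animal left out (negative without wt734, wtBT13 or wtBT14); Nnt in IP, at 0.05, was at -0.029 to 0.16 with each animal left out (negative without het729 or wtBT14). Neither was called. Of 1345 values of 76 genes in lysate, 977 kept direction and side of the threshold and 359 lost the call. The cause was not tested. Smart-seq2 reads are not single molecules, so genes at a few CPM are less certain than their counts imply.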

Other observations

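The red cell genes of het730 summed to 4307 CPM in lysate and those of hetBT14 to 1067 CPM, beside 1196 to 3660 CPM in the number-named and 1287 to 1623 CPM in the BT-named animals of the comparison. Cholesterol synthesis genes had a positive difference in 21 of 26 in lysate (median 0.18) with 0 called by edgeR, where 19.9% of all genes had an unadjusted p below 0.05, and were higher in hetBT14 than in het730 in 24 of 26. The Y-linked Ddx3y was at 111 to 119 CPM in BT-named and 80.0 to 94.0 CPM in number-named pull-downs, which did not overlap, and missed the threshold (log2 difference 0.42, SE 0.09, adjusted p = 0.0517).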
